A study of Mus musculus with 6 samples.

Results

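Cytosolic ribosomal proteins were followed in mouse testes taken at postnatal day 15 from control pups and from knockout pups, with 3 RNA samples per genotype, each on its own Affymetrix MoGene 1.0 ST array. The knockout group carries the deletion of a single gene, and beyond that gene's name the labels give no allele, strain, Cre driver or littermate status, so how far the deletion reaches into the cell types of the testis is not known here. Whether the replicates came from different pups is not stated either, and p-values below describe the variation among these 6 RNA samples, which could be technical. The genes were chosen by name: every transcript cluster (a set of probes that together read 1 transcribed region) whose single platform symbol begins with Rpl or Rps and a digit, or is Rplp0, Rplp1, Rplp2 or Rpsa. S6 kinases, Rps19bp1 and symbols marked as pseudogenes were left out. This gave 218 clusters of 62 genes, out of 21789 clusters and 19938 genes with a single symbol, and each gene was represented by its cluster with the highest mean over the 6 arrays. Of 77 canonical subunit genes looked for, 54 had such a cluster (21 of the small and 33 of the large subunit), and 23 did not: 16 of these stand in clusters with several symbols, and 7 were not matched and are not analysed here. The remaining 8 genes are paralogues or retroposed copies: Rpl3l, Rpl7l1, Rpl10l, Rpl32l, Rpl39l, Rps4l, Rps23rg1 and Rps27l. The label holds for the 54; Rps23rg1, a retroposed copy of Rps23, is not itself a known ribosomal subunit, and the gene table used here lists Rps4l as a transcribed pseudogene.

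The cytosolic ribosome has a small (40S) subunit, which reads the messenger RNA, and a large (60S) subunit, which joins amino acids; its proteins are made in near equal amounts in every growing cell. Their messengers typically begin with a C followed by a run of pyrimidines, the terminal oligopyrimidine tract, through which growth signals set their translation. In the testis a few have second copies that are used in male germ cells, among them Rpl10l for the X-linked Rpl10 and Rpl39l for the X-linked Rpl39, at the stage when the X chromosome falls silent in pachytene spermatocytes.

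The starts of the genes show what many members share beyond their names. RefSeq promoters (GRCm38.p6, from 250 bases before to 50 bases after the annotated start) matched 50 of the 62 genes. The letters CTTTC, a core of the pyrimidine tract, lay on the gene strand within 50 bases of the annotated start in 22 of them (44%), against 13.1% of 15563 genes on the array, and on either strand of the same stretch in 60% against 23.6%. The letters CCGGAAG, the core bound by ETS factors, lay on either strand in 38% of the 300-base promoters against 13.6%. TATAAA was found in 12% against 13.6%, and AAGATGGC, a core of the YY1 site, in 6% against 3.77%, both on either strand of the same 300 bases. A match is a description of letters, not a bound site, and RefSeq starts can lie some bases away from the start used in testis. The following 30-base stretches, read 5′ to 3′ on the gene strand, are shown because they belong to genes whose array values are described below; capitals mark CTTTC in the first 5 and CCGGAAG in the last.
Rpl39l (chr16:10170210-10170239, + strand): tagctcccaggcCTTTCcggatttccggtg
Rpl36a (chrX:134585674-134585703, + strand): gctctagcctctctCTTTCcgagctgctag
Rpl6 (chr5:121204521-121204550, + strand): cgctgccttagttctCTTTCccgtcttgca
Rplp2 (chr7:141447639-141447668, + strand): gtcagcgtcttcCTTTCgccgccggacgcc
Rpsa (chr9:120127776-120127805, + strand): cggccgcccgtcCTTTCgcgctacccgggg
Rps27l (chr9:66946084-66946113, + strand): ccgcctctatcCCGGAAGttgctgaggggc
Rplp2 has CTTTC at the annotated start itself, and Rpl39l has it beginning 6 bases before. Rpl6 and Rpl36a have it further inside, beginning at bases 36 and 35 of the annotated transcript. Rpl10l, Rps9, Rpl37a, Rps12 and Rpl14 held no CTTTC on the gene strand within these 100 bases, which says only that these letters are not in this window.

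Messenger levels of the ribosomal proteins differed little between knockout and control testes. The median difference over the 62 genes, knockout minus control on the log2 scale, was 0.02, against 0.0033 over all 21789 clusters. The differences ran from -0.14 for Rps27l to 0.22 for Rps9, and 54 of the 62 genes differed by at most 0.1 in either direction. The other 8 differed by more than 0.1, and 22.9% of all clusters did so. In limma's moderated test with Benjamini-Hochberg adjustment over all clusters, 0 of the 62 genes passed an adjusted p of 0.05, where 0.0138% of all clusters passed; the smallest adjusted p of a member was 0.392. At an unadjusted p under 0.05 there were 5 members, or 8.06%, against 10.6% of all clusters. Of these 4 were higher in the knockout (4.1% of all clusters were) and 1 was lower (6.45%). With counts this small the shares lay near those of all clusters, no test compared them, and no direction is read from them. With an intensity trend and robust prior the total was 8, of which 7 were higher, and again 0 members passed the adjusted threshold. It was 3 without control replicate 2, 2 without control replicate 3, 1 without knockout replicate 1, 0 without knockout replicate 2 and 3 without knockout replicate 3. For these other settings the share of all clusters is not given here, so their counts have no background.

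A p above the threshold does not show that a level was the same, so the width of the intervals matters. The 95% intervals of the members reached between 0.0875 and 0.243 to either side of the difference, with a median of 0.102. For 58 of the 62 genes the whole interval of the brightest cluster lay within a 1.2-fold change either way (0.263 on the log2 scale). The exceptions, named here because their intervals crossed that bound, were Rps9 (0.009 to 0.4244), Rps15a (-0.1342 to 0.2676), Rps23rg1 (-0.3159 to 0.1693) and Rpl14 (-0.2631 to 0.0631). The count does not cover the dimmer clusters. Among these, intervals crossed the bound for a cluster of Rpl7 (0.0282 to 0.2785), of Rps14 (-0.1962 to 0.3362) and of Rps2 (-0.2994 to 0.1394). At the median the spread between replicates was smaller for the members than for the array as a whole: the SD within groups was 0.0377, against 0.0705 over all clusters. Most members were brighter than the array medians of 8.075 to 8.1, and the spread was not compared among clusters of like brightness.

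**Figure D1:**
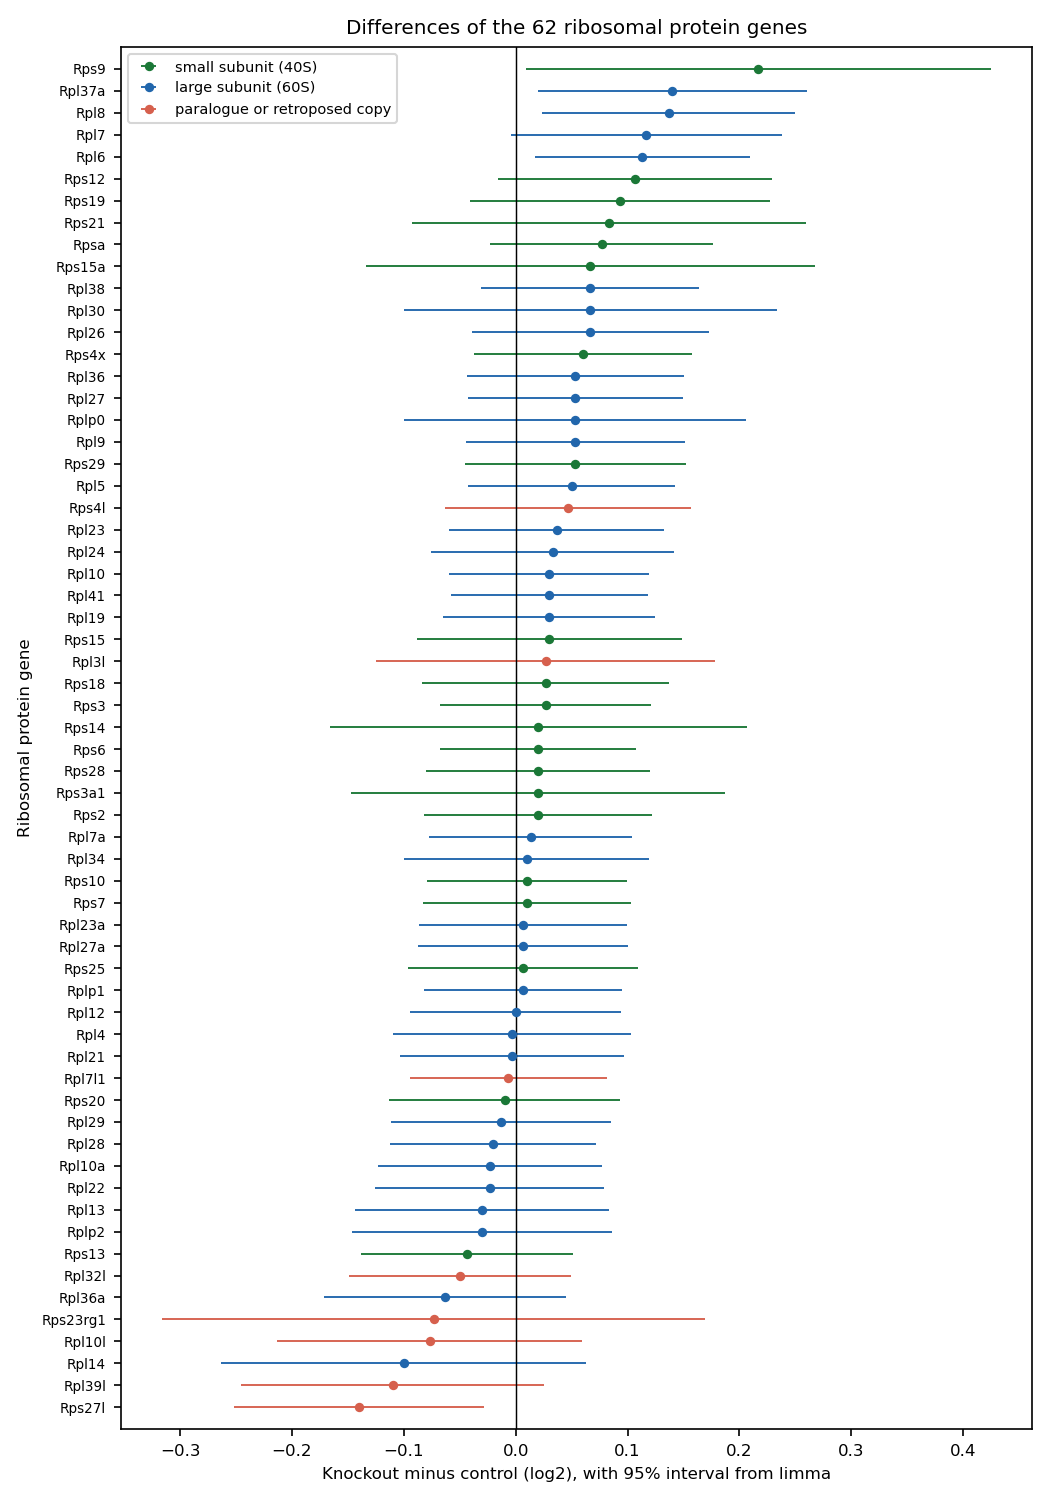
Difference between knockout and control (horizontal axis, log2) for each of the 62 genes, with the 95% interval from limma (n = 3 arrays per group); green marks the small subunit, blue the large subunit and red the paralogues and retroposed copies. The points run from -0.14 (Rps27l) to 0.22 (Rps9), and 5 intervals do not reach 0.

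By sign, 43 members lay above the control mean, 18 below and 1 (Rpl12) level with it, which is 69.4% above, against 51.3% of all clusters. The medians of the canonical subunits and of the paralogues had opposite signs. Of the 54 canonical genes 41 were above and 12 below, with a median of 0.027; of the 8 paralogues and copies 2 were above and 6 below, with a median of -0.062. Knockout arrays were entirely on one side of the control arrays in 12 of the 62 genes (19.4%, against 15.3% of all clusters), 10 of them higher and 2 lower in the knockout, where 6.73% and 8.6% of all clusters did so. With each array centred on its median these counts were 21 and 1, where 11.6% and 5.89% of all clusters did so. The median was then 0.04 for the members and 0.0233 for all clusters, and 12 members lay below the control mean. Since the members share cells and arrays, and many share near-identical sequence, the counts are a description and no test of the group.

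**Figure D2:**
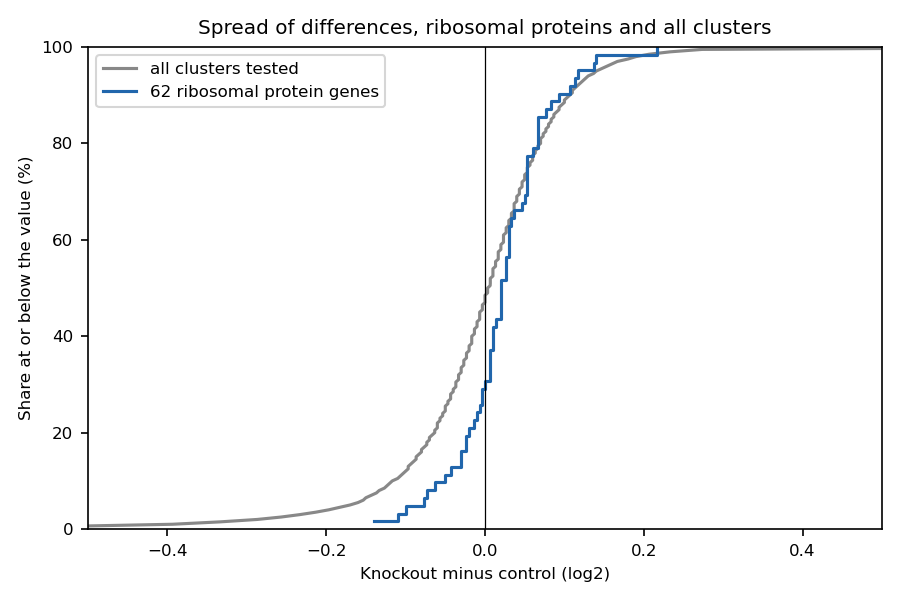
Share of features (vertical axis, %) whose knockout minus control difference (horizontal axis, log2) is at or below each value, for the 62 ribosomal protein genes (blue steps) and all 21789 clusters tested (grey line). The blue steps are steeper, with quartiles of -0.0058 and 0.0533 against -0.05 and 0.0533, and their median is 0.02 against 0.0033.

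Among proteins of the small subunit, 19 of 21 genes were above their control mean (median 0.027); the other two were Rps13 and Rps20. Rps9, a protein of the 40S body next to the decoding centre, had the highest difference of all members. Its array values were 10.93, 10.83 and 10.57 in the controls and 11.02, 10.98 and 10.98 in the knockouts. All 3 knockout arrays lay above all 3 controls, but control replicate 3 stood well below the other two. The difference was 0.22 (SE 0.0884, 1.16-fold, adjusted p = 0.453 in limma), from 10.78 ± 0.186 (SD, n = 3) to 10.99 ± 0.0231. Without control replicate 3 it was 0.11, and the other Rps9 cluster also gave 0.11 (SE 0.0429, adjusted p = 0.422), with controls at 10.06, 10.08 and 10.07 and knockouts at 10.19, 10.23 and 10.13.

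Rps12, another protein of the 40S subunit, measured 11.31, 11.17 and 11.32 in the controls and 11.38, 11.35 and 11.39 in the knockouts. The groups did not overlap, and control replicate 2 was the lowest array. The difference was 0.11 (SE 0.0523, 1.08-fold, adjusted p = 0.524), and 0.058 without control replicate 2. Rpsa, the 40S protein once described as a laminin receptor, measured 11.20, 11.13 and 11.14 in the controls and 11.26, 11.20 and 11.24 in the knockouts, where 1 knockout array tied with the highest control. Its difference was 0.077 (SE 0.0424, adjusted p = 0.564). Rps4x, the X-linked 40S protein, differed by 0.06 (SE 0.0415, adjusted p = 0.663), with controls at 11.37, 11.33 and 11.41 and knockouts at 11.45, 11.43 and 11.41.

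The large subunit held the other members with an unadjusted p under 0.05 on the higher side. Of its 33 genes 22 were above, 10 below and 1 level with the control mean (median 0.03). Rpl37a, a small zinc-binding 60S protein, measured 11.84, 11.70 and 11.77 in the controls and 11.89, 11.96 and 11.88 in the knockouts, so the groups were separate. It was higher by 0.14 (SE 0.0511, 1.10-fold, adjusted p = 0.412), from 11.77 ± 0.070 to 11.91 ± 0.0436 (SD, n = 3). Rpl8, a core protein near the peptidyl transferase centre, measured 11.19, 11.20 and 11.15 in the controls and 11.30, 11.39 and 11.26 in the knockouts. Every knockout array lay above every control, by a difference of 0.14 (SE 0.0480, 1.10-fold, adjusted p = 0.400).

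Rpl6, a 60S surface protein, measured 12.35, 12.36 and 12.34 in the knockouts, against 12.28, 12.20 and 12.23 in the controls. The groups were separate, and the difference was 0.11 (SE 0.0410, 1.08-fold, adjusted p = 0.410). Rpl7, also of the 60S subunit, measured 11.25, 11.10 and 11.21 in the controls and 11.29, 11.28 and 11.34 in the knockouts, again without overlap. Its difference of 0.12 (SE 0.0516, adjusted p = 0.483) was 0.073 without control replicate 2, the lowest array. The other Rpl7 clusters gave 0.13, 0.13 and 0.153 (adjusted p = 0.428, 0.468 and 0.397 in limma), each without overlap.

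At the lower end of the canonical genes, Rpl14, a 60S protein, measured 9.31, 9.26 and 9.33 in the controls and 9.30, 9.05 and 9.25 in the knockouts. Knockout replicate 2 alone was far below the rest, and the groups overlapped. The difference was -0.10 (SE 0.0694, adjusted p = 0.665), and -0.025 without that array. Rpl36a, an X-linked 60S protein, measured 11.61, 11.70 and 11.59 in the controls and 11.58, 11.59 and 11.54 in the knockouts, touching at 1 value. Its difference was -0.063 (SE 0.0460, adjusted p = 0.681), and -0.03 without control replicate 2, the highest array.

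**Figure D3:**
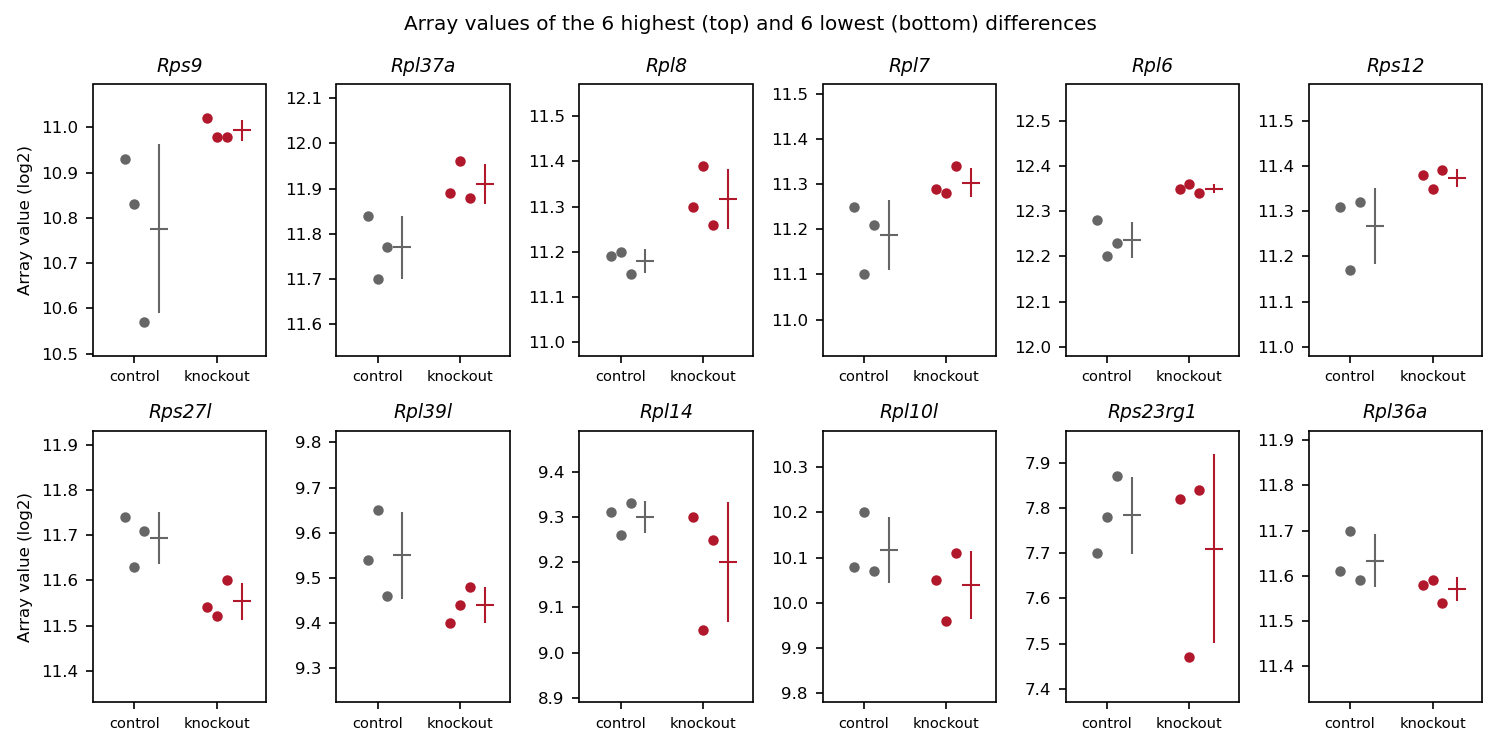
Array values (vertical axes, log2) of the 6 genes with the highest differences, in the top row, and the 6 with the lowest, in the bottom row; grey points are the control and red points the knockout arrays, bars are the mean ± SD of 3 arrays, and every panel spans the same height. The groups are separate in all 6 upper panels and, of the lower ones, in that of Rps27l.

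The stalk proteins, which bind the elongation factors, were close to level. Rplp0, the base of the stalk, measured 12.73, 12.87 and 12.73 in the controls and 12.92, 12.84 and 12.73 in the knockouts; knockout replicate 1 lay above every control and the others among them (difference 0.053, SE 0.0651, adjusted p = 0.823). That value depended on single arrays and lay between 0.0083 and 0.10 when 1 was left out. Rplp1 differed by 0.0067 (SE 0.0377), with a sign that turned to -0.011 when quantile normalization was repeated over all clusters with a single symbol. Rplp2 differed by -0.03 (SE 0.0496), and its sign turned to 0.0033 without control replicate 1. Rpl5, which with the 5S ribosomal RNA can bind the p53 regulator MDM2 when ribosome assembly fails, measured 11.94, 11.92 and 11.93 in the controls and 11.98, 11.95 and 12.01 in the knockouts. The groups did not overlap, yet the difference was only 0.05 (SE 0.0393, adjusted p = 0.704). Its partner Rpl11 was among the genes in clusters with several symbols.

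Among the paralogues, the lowest value of all members belonged to Rps27l, a copy of Rps27 that p53 can switch on. Its arrays read 11.74, 11.63 and 11.71 in the controls and 11.54, 11.52 and 11.60 in the knockouts. All knockout arrays lay below all controls, with a difference of -0.14 (SE 0.0477, fold 0.908, adjusted p = 0.392) from 11.69 ± 0.0569 to 11.55 ± 0.0416 (SD, n = 3). Leaving out any 1 array gave values from -0.17 to -0.12. Rps27 itself stood only in clusters with several symbols.

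The germ-cell copies Rpl39l and Rpl10l, both of X-linked genes, were below the control mean without passing the test. Rps4l, the copy of the X-linked Rps4x, lay above its own control mean (0.047). Rpl39l, the germ-cell copy of a protein that lines the exit tunnel, measured 9.54, 9.65 and 9.46 in the controls and 9.40, 9.44 and 9.48 in the knockouts. Knockout replicate 3 lay above the lowest control, so the groups overlapped. The difference was -0.11 (SE 0.0577, fold 0.927, adjusted p = 0.548), and -0.06 without control replicate 2, the highest array. Rpl10l, the germ-cell copy of Rpl10 on chromosome 12, measured 10.08, 10.20 and 10.07 in the controls and 10.05, 9.96 and 10.11 in the knockouts. The groups overlapped here too, with a difference of -0.077 (SE 0.0581, fold 0.948, adjusted p = 0.696). It was -0.035 without control replicate 2 and -0.037 without knockout replicate 2.

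Genes of pachytene spermatocytes, the cells that use these copies, leaned lower in the same arrays: 18 of 20 markers lay below their control means (median -0.29), 11 of the 20 (55%) at an unadjusted p under 0.05, where 6.45% of all clusters were lower, and 0 past the adjusted threshold in limma. Their mean ran from 8.608 to 9.119 in the controls and from 8.443 to 8.661 in the knockouts. In bulk testis, fewer cells of a type and less RNA per cell cannot be told apart, and the part of this shift in the values of Rpl39l and Rpl10l was not tested.

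Rpl10, the X-linked parent, measured 12.88, 12.87 and 12.87 in the controls and 12.91, 12.88 and 12.92 in the knockouts, a difference of 0.03 (SE 0.0380, adjusted p = 0.831). Within each array Rpl10l minus Rpl10 was -2.80, -2.67 and -2.80 in the controls and -2.86, -2.92 and -2.81 in the knockouts. This within-array value changed by -0.11, without overlap (exact permutation p = 0.1, two-sided, the smallest that 3 arrays against 3 allow, and 0.15 after Benjamini-Hochberg adjustment over the 3 pairs measured on both sides). For Rpl7l1, the partner of Rpl7 known as a ribosome assembly factor, the value against Rpl7 changed by -0.12 (exact permutation p = 0.1, adjusted 0.15). There the movement was on the side of Rpl7, since Rpl7l1 itself differed by -0.0067 (0.013 with the arrays centred on their medians). For Rps4l against Rps4x it changed by -0.013 (exact permutation p = 0.9), and Rps4l differed by 0.047 (SE 0.0467, adjusted p = 0.771).

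The remaining copies varied without a shared direction. Rpl32l, a copy of Rpl32, measured 9.53, 9.46 and 9.44 in the controls and 9.43, 9.43 and 9.42 in the knockouts. Its groups were separate by a narrow gap, and the difference was -0.05 (SE 0.0421, adjusted p = 0.725). Rpl3l, the striated-muscle copy of Rpl3, measured 6.30, 6.35 and 6.34 in the controls and 6.48, 6.24 and 6.35 in the knockouts, a difference of 0.027 (SE 0.0644) that was -0.035 without knockout replicate 1. Rps23rg1 measured 7.70, 7.78 and 7.87 in the controls and 7.82, 7.47 and 7.84 in the knockouts, so that its difference of -0.073 (SE 0.103) was 0.047 without knockout replicate 2. Rpl22, whose paralogue Rpl22l1 had no cluster of its own symbol, differed by -0.023 (SE 0.0436), or 0.0017 without control replicate 1. The X-linked members were Rpl10, Rpl36a and Rps4x, of which 2 lay above and 1 below the control mean, none of them without overlap in the brightest cluster. Some dimmer clusters of Rpl10 (differences 0.04 and 0.0367) and of Rps4x (0.0733, 0.07 and 0.07) had every knockout array above every control.

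Mouse ribosomal protein genes have many processed pseudogenes with nearly the same sequence, and 39 of the 62 genes had several clusters under 1 symbol, up to 14 for Rps12. Such clusters may read transcripts of the gene itself, of copies, or of both, and cannot be told apart here. Clusters of a gene gave nearly the same difference: the median range between them was 0.023, and in 33 of the 39 genes it was at most 0.05. The widest ranges were 0.10 for Rps9 and 0.10 for Rps2, whose 3 clusters gave -0.08, 0.0067 and 0.02. Some clusters of a gene carried the same values on every array, among them all 3 of Rpl41 and several of Rps12, so part of this likeness was fixed in advance. Since such clusters can share probes or targets, their likeness is no replication. The 39 genes with several clusters had a median of 0.03 (33 above and 6 below the control mean), whereas the 23 genes with 1 cluster had a median of -0.0033 (10 above, 12 below and 1 level). The 23 include 7 of the 8 paralogues and copies, of which 6 lay below the control mean and 1 above (median -0.073). The 16 canonical genes with 1 cluster were 9 above, 6 below and 1 level (median 0.015), and the 38 with several were 32 above and 6 below (median 0.03).

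**Figure D4:**
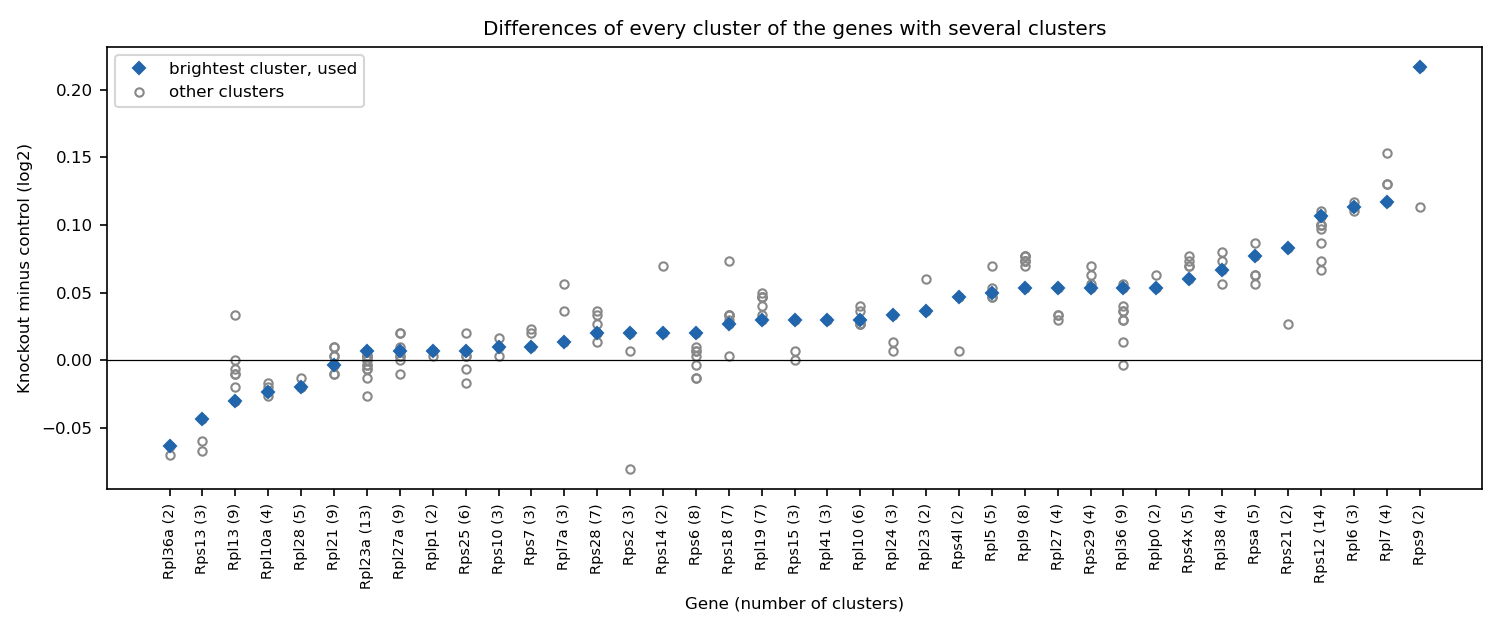
Difference between knockout and control (vertical axis, log2) of every cluster of the 39 genes with several clusters (horizontal axis, number of clusters in brackets); blue diamonds are the brightest clusters, which represent the genes, and grey circles the others. The circles lie near their diamonds, with the widest ranges, 0.10, in Rps9 and Rps2.

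Across arrays, control replicate 3 had the lowest of the 6 values in 24 members and control replicate 2 in 21, ties counted, while knockout replicate 3 was lowest in 3. The same count over all clusters is not given here. Members above their control mean numbered 39, 31 and 18 of 62 in control replicates 1 to 3, where 54.8%, 46.1% and 46.7% of all clusters were. In knockout replicates 1 to 3 they numbered 44, 37 and 41, against 54.1%, 47.5% and 49.7%. The mean over all 62 genes was 11.301, 11.291 and 11.271 in the controls and 11.320, 11.295 and 11.315 in the knockouts, so knockout replicate 2 lay among the controls. For the small subunit alone the means were 11.562, 11.535 and 11.518 against 11.588, 11.567 and 11.592, and for the large subunit 11.525, 11.518 and 11.501 against 11.549, 11.537 and 11.537. In both subunits every knockout mean lay above every control mean, and the nearest ones were 11.567 and 11.562 for the small and 11.537 and 11.525 for the large subunit.

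Other genes of ribosome production were more often below than above the control mean. Of 83 measured ribosome biogenesis genes (RNA polymerase I, nucleolar factors and assembly factors), 55 lay below it and 27 above (median -0.033). None passed the adjusted threshold in limma, while at an unadjusted p under 0.05 there were 7 lower and 1 higher (9.64%, against 10.6% of all clusters). Bms1, a GTPase of early 40S assembly, measured 10.41, 10.35 and 10.29 in the controls and 10.13, 10.15 and 10.14 in the knockouts. The groups were well apart, with a difference of -0.21 (SE 0.0452, fold 0.865, adjusted p = 0.294). Nip7, needed for 60S assembly, differed by -0.18 (SE 0.0517, adjusted p = 0.359), and Ltv1, a 40S export factor, by -0.14 (SE 0.0436, adjusted p = 0.376), both without overlap.

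Of 77 mitochondrial ribosomal proteins, which build the separate ribosome of that organelle, 49 lay below and 25 above it (median -0.017). There 6 were lower and 0 higher at an unadjusted p under 0.05 (7.79%, against 10.6% of all clusters), and 0 passed the adjusted threshold in limma. A list of 20 other messengers known for terminal pyrimidine tracts, mostly translation factors, had 10 above and 10 below, with a median of 0.0017, and 0 at an unadjusted p under 0.05. Eif3h (-0.073, adjusted p = 0.550) and Eif3e (-0.07, adjusted p = 0.648), subunits of initiation factor 3, and the ADP/ATP carrier Slc25a5 (0.063, adjusted p = 0.613) had its smallest p-values. Fau, which encodes a 40S protein fused to a ubiquitin-like one, differed by 0.02 (SE 0.0392, adjusted p = 0.898), with controls at 12.47, 12.49 and 12.43 and knockouts at 12.48, 12.49 and 12.48. No test set these lists against the ribosomal proteins.

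**Figure D5:**
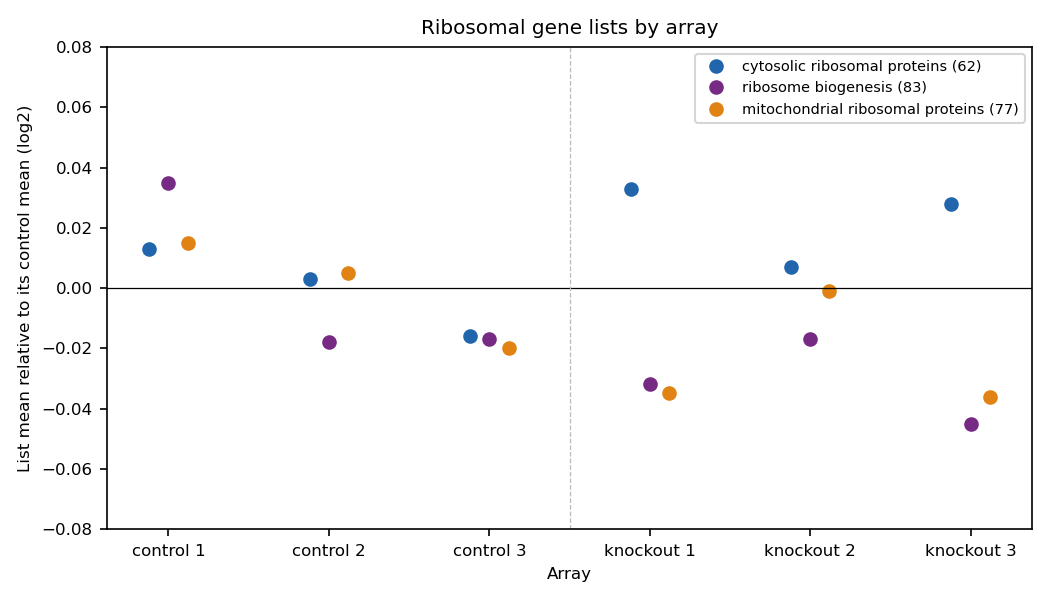
Mean of each list on each array relative to the list's control mean (vertical axis, log2) for the cytosolic ribosomal proteins (blue), ribosome biogenesis genes (purple) and mitochondrial ribosomal proteins (orange), with control arrays on the left and knockout arrays on the right of the dashed line. The cytosolic proteins reach 0.033 and the biogenesis genes -0.045 in the knockout, and control replicate 1 lies highest among controls for all 3 lists.

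The array medians were 8.075 to 8.1, but RMA had put all arrays onto a shared distribution, so this does not show that they were alike. The lowest correlation between any pair was 0.996 over the clusters tested, a value that includes the differences in level between genes. The number of arrays limits the precision. Markers of testis cell types were present on all arrays. Besides the spermatocyte genes, 13 of 18 spermatogonial markers lay below the control mean (median -0.097), while 19 of 22 Sertoli (0.07), 8 of 9 Leydig (0.18), 11 of 12 macrophage (0.12) and both measured erythrocyte markers (0.20) lay above it. The spermatogonial markers did not share a direction. The 5 above the control mean were Gfra1 (0.39, adjusted p = 0.242 in limma), Etv5 (0.25), Ret (0.23), Neurog3 (0.13) and Nanos2 (0.11). The lowest were Dmrtb1 (-0.36) and Sall4 (-0.30). Of 11 endothelial markers 6 and of 10 peritubular myoid markers 6 lay below (medians -0.01 and -0.017). List means ran from 9.434 to 9.519 in control and 9.395 to 9.447 in knockout arrays for spermatogonia, and from 11.266 to 11.352 and 11.373 to 11.395 for Sertoli cells. The part of these shifts in the differences of the ribosomal proteins was not tested.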

How the data were processed

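Per the submitters' processing notes, the authors made log2 values, 1 per transcript cluster and array, with RMA in Affymetrix Expression Console; their versions and a genome build were not stated in those notes. Because RMA forces all arrays onto a shared distribution, a shift of every transcript at once would be invisible. Of 35556 rows, 21789 carried 1 gene symbol in the platform annotation and were tested; 1621 with several and 12146 without one were left out. The fit of knockout minus control used limma 3.58.1 under R 4.3.3 (lmFit, eBayes, no covariates, 4 residual and 3.24 prior degrees of freedom), with Benjamini-Hochberg adjustment over 21789 clusters and a threshold of 0.05. Lists are described by counts and medians without a test. Promoters came from RefSeq (GRCm38.p6), and the 4 motifs printed were chosen after 13 had been counted. The code was tested on simulated data.

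The members, lists and rule for named genes were chosen with earlier results of these data known. Named are the 6 highest and 6 lowest differences, the paralogue pairs, stalk proteins, Rpsa, Rpl5, Fau and the 3 smallest p-values of 2 related lists; a few others were named after their values were seen. The targeted gene is not reported here. Alternatives were another prior, a replicate block, other rows, filters, scalings and rows per gene, and each array left out.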

Additional observations from a re-analysis of the deposited data

How the results depend on the processing

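No member passed an adjusted p of 0.05 in limma under the main setting or any of the 16 alternatives, and the count of members below the control mean stayed within 1.5 times of 18 as a number, between 12 and 26. The count of all clusters called was 3; it was 7 with an intensity trend and robust prior, 0 with the replicate block, 0 with all rows tested, and 0 to 52 with 1 array left out. Members at an unadjusted p under 0.05 were 5. They were 8 (7 of them higher) with the trend and robust prior, 3 with the replicate block, and 0 to 5 with 1 array left out. The share of all clusters in these other settings is not given here. With the arrays centred on their medians the median of the members was 0.04 and 22 had no overlap (35.5%, against 17.5% of all clusters). With 1 array left out 14 to 20 of 62 had no overlap, where groups of fewer arrays separate more easily. The share of all clusters with 1 array left out is not given here, so those counts have no background. Over the 23 members with 1 cluster, a setting chosen after seeing the data, the median was -0.0033, 3 had an unadjusted p under 0.05 (13%, against 10.6% of all clusters) and 4 had no overlap (17.4%, against 15.3%). Signs turned for Rpl7l1 (0.0133, arrays centred), Rplp1 (-0.0111, quantile normalization repeated), and when single arrays were left out for Rpl22 (-0.0483 to 0.0017), Rplp2 (-0.0567 to 0.0033), Rpl3l (-0.035 to 0.085) and Rps23rg1 (-0.1383 to 0.0467); the cause was not tested. Deviations from the group means in samples with the same replicate number had correlations of 0.166, -0.0536 and 0.17. With 3 arrays per group these values cannot decide whether the numbers pair the samples.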

Other observations

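Beside the named genes, 239 clusters carried several symbols of which at least 1 was a cytosolic ribosomal protein, and they hold 16 of the 23 canonical genes that had no cluster of their own. Their differences ran from -0.067 to 0.213 with a median of 0.0033 on the log2 scale. At an unadjusted p under 0.05, 6 were higher and 0 lower (2.51%, against 8.49% of all 35556 rows). In limma 0 passed an adjusted p of 0.05 over all rows, and the smallest adjusted p was 0.513. Since no single gene can be named for them, they enter no comparison above, and clusters that read the same copies are not independent.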
